A study of Mus musculus with 3 samples.

Results

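The chloride intracellular channel (CLIC) genes Clic1, Clic4 and Clic5 were examined in RNA bound to ribosomes that had been tagged in endothelial cells of the mouse heart. They are the rows of the deposited table whose gene symbol equals one of these names, which makes 3 of 17583 genes. The members were selected on these same values, since Clic4 and Clic5 are among the highest genes of the table, so all levels are given as a description without a test. The annotation of the mouse genome holds 5 CLIC genes. Of the remaining CLIC genes, Clic6 is listed in the table and Clic3 is not.

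All 3 libraries belong to a single group, EC-RiboTag mice, with 1 library per mouse. These mice carry the Rpl22tm1.1Psam allele together with the Cdh5-CreERT2 transgene. Cdh5-CreERT2 is a tamoxifen-inducible Cre recombinase under the control of the VE-cadherin gene, and the Rpl22 allele yields a ribosomal protein with a hemagglutinin tag once Cre has acted, so that tagged ribosomes come from cells in which the Cdh5 driver was active. Hearts were perfused with cycloheximide, tagged ribosomes were immunoprecipitated from the homogenate, and their RNA was sequenced in single-end reads of 72 bases. The sample labels place the hearts at day 7 after coronary ligation. The study's figure legend for RNA sequencing of EC-RiboTag hearts mentions no infarction. The study also describes EC-RiboTag hearts that were divided into remote, border and infarct zones at day 7, but those were measured by quantitative PCR. The study abbreviates the remote zone as RZ, but the labels name the tissue as heart and do not say whether Rz in the titles stands for this zone. Mice of both sexes were used in the study, and the age and sex of these 3 mice are not given in the labels. No input library and no library of another condition was analysed here. The labels call the libraries biological replicates.

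CLIC proteins are small proteins with the fold of glutathione transferases. They exist in a soluble and in a membrane-associated form, and both ion channel activity and glutaredoxin-like enzyme activity have been described for them. In endothelial cells CLIC4 takes part in tube and lumen formation and, together with CLIC1, in signalling downstream of sphingosine-1-phosphate receptors. CLIC5 associates with ezrin, radixin and moesin, which tie the plasma membrane to cortical actin, and is known from the stereocilia of the inner ear and from the kidney glomerulus. CLIC1 is broadly expressed and acts in phagosomes of macrophages.

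Because the 3 members are paralogs, it was first asked whether reads of 72 bases can tell them apart. In the coding sequences of Clic4 and of the shorter Clic5 transcript, 532 of 753 aligned bases were identical (70.7%). Between Clic1 and Clic4 the identity was 64.5%, and between Clic1 and Clic5 it was 64.6%. The following stretches of 1 read length are shown because they are the place where the 3 coding sequences are most alike. They lie in the second exon of each transcript, in the part that encodes the glutaredoxin-like domain, at chr4:134966191-134966262 (minus strand) for Clic4, chr17:44548040-44548111 (plus strand) for Clic5 and chr17:35271431-35271502 (plus strand) for Clic1, all on GRCm39. They are written 5′ to 3′, and capitals mark the bases that differ from Clic4.
Clic4: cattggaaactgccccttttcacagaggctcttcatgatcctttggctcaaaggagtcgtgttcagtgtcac
Clic5: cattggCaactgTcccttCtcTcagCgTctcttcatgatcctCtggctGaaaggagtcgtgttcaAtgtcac
Clic1: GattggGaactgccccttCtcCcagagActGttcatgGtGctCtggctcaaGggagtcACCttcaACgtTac
Even here Clic5 differed from Clic4 at 9 bases and Clic1 differed from Clic4 at 16 bases, and Clic1 and Clic5 differed at 16. The longest run of identical bases between Clic4 and Clic5 was 23 bases long, shown here because it is the longest stretch that any pair of the 3 shares:
shared by Clic4 and Clic5: gggacgagttcaccaacacctgt
No exact copy elsewhere in the genome was found for any window of 72 bases in the canonical transcripts of Clic1, Clic4 or Clic5. The search kept only alignments identical at every base, so a copy inside a longer, imperfect alignment could be missed. No exon of these genes overlapped an exon of another gene on the same strand (0 bases). The values of the 3 genes can therefore be read as measurements separate from each other.

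Clic5 had the highest normalized count of the family. Clic5 (ENSMUSG00000023959) lies on the plus strand of chromosome 17 of GRCm39 from 44445659 to 44591059. In mice 1, 2 and 3 it reached normalized counts of 3174, 2959 and 3158, with a mean of 3097 ± 119.8 (SD, n = 3 mice). Mouse 2 was the lowest, and the 3 values lay close together. By mean, without regard to length, Clic5 ranked 36 among the 17583 genes, which places it in the highest 0.205%, and its rank in single mice was 35, 40 and 37. Only 6 other genes had a mean within 1 SD of it.

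Clic4 came next. Clic4 (ENSMUSG00000037242) lies between 134941280 and 135000125 of chromosome 4, on the minus strand. Normalized counts of 2501, 2664 and 2528 were found in mice 1, 2 and 3, with a mean of 2564 ± 87.4 (SD, n = 3). Here mouse 2 was the highest. Clic4 ranked 80 by mean, in the highest 0.455%, and took ranks 93, 63 and 97 in mice 1, 2 and 3.

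Clic1 had a lower normalized count. Clic1 (ENSMUSG00000007041) lies on the plus strand of chromosome 17 from 35268942 to 35277725, and reached 808, 917 and 851 normalized counts in mice 1, 2 and 3. The mean was 858.7 ± 54.9 (SD, n = 3). It ranked 2732 by mean, in the highest 15.5% of the table, and 630 other genes lay within 1 SD of it. As for Clic4, mouse 1 had the lowest and mouse 2 the highest value.

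Clic6 and Clic3 were near or below the floor of the table. Clic6, whose protein has a long N-terminal extension and is known from secretory epithelia, reached 5, 2 and 1 normalized counts in mice 1, 2 and 3, and its mean of 2.67 fell to 1.5 without mouse 1. Their 95% exact Poisson intervals, from 1.59 to 11.4 in mouse 1, from 0.257 to 7.66 in mouse 2 and from 0.0243 to 5.35 in mouse 3, overlap, and cover counting error only. Clic3 has no row, and the table holds no gene whose highest value is below 4. The family's signal in this RNA therefore consisted of Clic1, Clic4 and Clic5. In the sum of all CLIC values of a mouse, Clic5 took 47.5% ± 1.98, Clic4 took 39.3% ± 1.22, Clic1 took 13.2% ± 0.792 and Clic6 took 0.0410% ± 0.0322 (SD, n = 3). This sum was 6488, 6542 and 6538 in mice 1, 2 and 3, and varied less than any of its main parts.

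**Figure D1:**
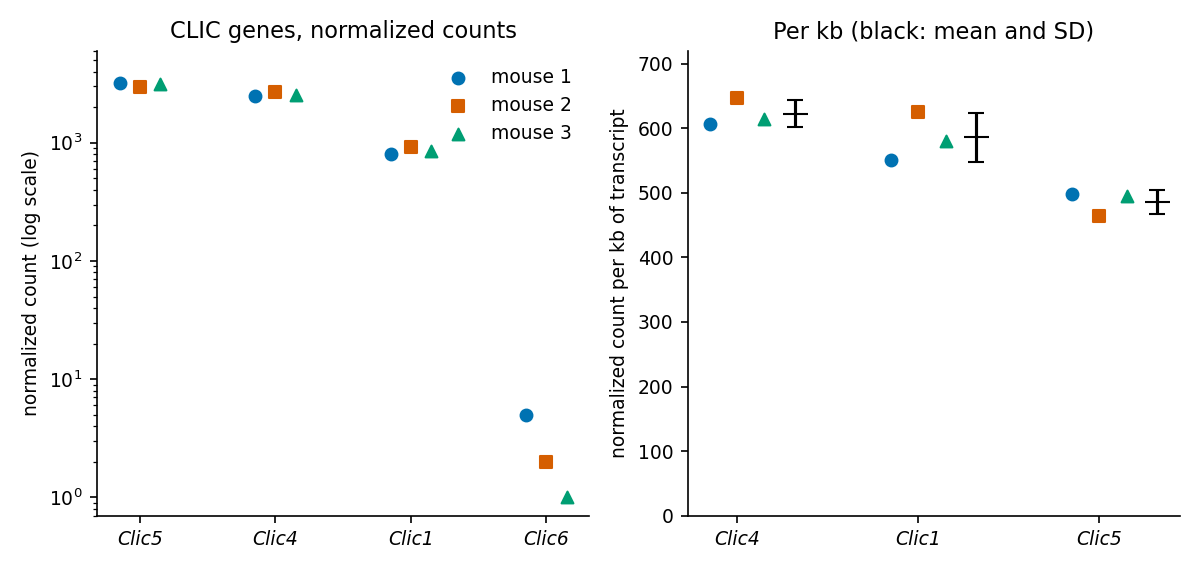
Left, normalized counts of 4 CLIC genes in each mouse, on a log axis. Right, the same values of Clic4, Clic1 and Clic5 divided by transcript length in kb, with the mean and SD over 3 mice in black. Clic5 is highest by count (2959 to 3174) and lowest of the 3 per kb (464 to 498), and Clic6 lies at 1 to 5 normalized counts.

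A longer transcript gives more reads per molecule, so the members were compared with each other per kb of transcript. The canonical transcripts of the 3 members have 6 exons each. Within the gene bounds of the deposited table, the canonical transcript is 6371 bases long for Clic5, 4119 bases for Clic4 and 1466 bases for Clic1, compared with a median of 3282 bases for genes that averaged 200 or more. The difference lies mostly outside the coding sequence. The part after the coding sequence makes up 75.2% of the transcript in Clic5 and 76.1% in Clic4, but 17.8% in Clic1. Clic5 has a second protein-coding transcript that starts further downstream and codes for a shorter protein, with 753 coding bases against 1455, and values per gene do not tell these transcripts apart.

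**Figure D2:**
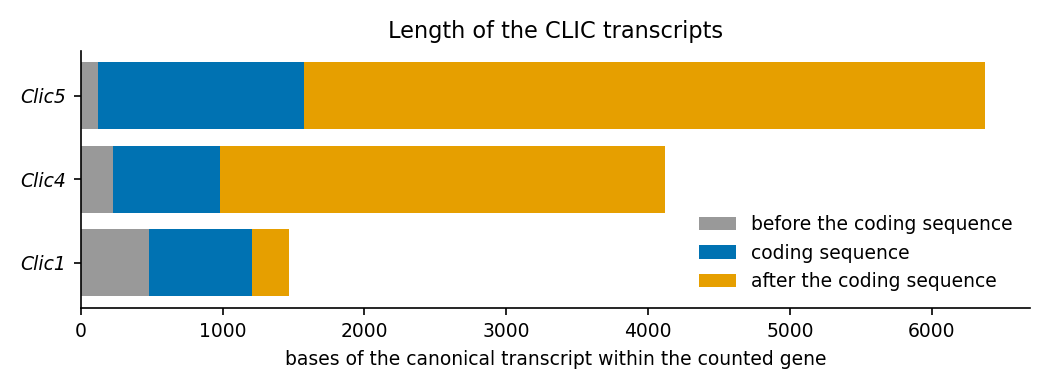
Length in bases of the parts of the canonical transcripts of Clic5, Clic4 and Clic1, counted within the gene bounds of the deposited table. Clic5 and Clic4 owe most of their length to the part after the coding sequence (4794 and 3135 bases), which is 261 bases long in Clic1.

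Per kb of transcript, the 3 genes lay close to each other and Clic5 was no longer the highest. In mice 1, 2 and 3, Clic4 reached 607, 647 and 614 normalized counts per kb, with a mean of 622.6 ± 21.2 (SD, n = 3). Clic1 had 551, 626 and 580.5 per kb, with a mean of 585.7 ± 37.5. Clic5 had 498, 464 and 496 per kb, with a mean of 486.1 ± 18.8. The values of Clic4 and Clic1 overlapped between mice, whereas each value of Clic5 was below each value of the other members.

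Within a mouse, the log2 ratio of Clic4 to Clic5 per kb was 0.29, 0.48 and 0.31, with a mean of 0.36 ± 0.11 (SD, n = 3), a 1.28-fold difference. That of Clic1 to Clic5 was 0.15, 0.43 and 0.23, with a mean of 0.27 ± 0.15. That of Clic4 to Clic1 was 0.14, 0.05 and 0.08, with a mean of 0.09 ± 0.05. The order of Clic4 and Clic1 depended on the length used. With the full canonical transcript of the newer annotation, which extends Clic4 to 5236 and Clic5 to 6902 bases, Clic1 was the highest and the log2 ratio of Clic4 to Clic1 was -0.26. By the union of all annotated exons it was -0.35. With Clic5 taken by its shorter transcript, Clic5 rose to 528.3 ± 20.4 per kb and stayed below Clic4 and Clic1 by mean. By coding length alone, with the 1455 coding bases of its canonical transcript, Clic5 was above Clic1. The shorter Clic5 transcript has 753 coding bases, fewer than the 759 of Clic4. With its higher normalized count, Clic5 would by that length also be above Clic4.

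All 3 members stood high among the genes of the table per kb. Of 17439 genes with a length, Clic4 ranked 330, Clic1 ranked 420 and Clic5 ranked 804, which is within the highest 1.89%, 2.41% and 4.61%. The median of all these genes was 84.6 per kb, and that of the 9355 genes averaging 200 or more was 197.7 per kb. Among the latter, 96.6% were lower than Clic4, 95.7% were lower than Clic1 and 91.6% were lower than Clic5. Many genes share these levels, since 98 other genes lay within 1 SD of Clic4 per kb, 215 within 1 SD of Clic1 and 218 within 1 SD of Clic5. In normalized counts per base, Clic4 had 0.623, Clic1 had 0.586 and Clic5 had 0.486, against 0.787 at the 99th percentile. Duplicate reads were removed by the authors, which limits each start position to about 1 read. Values per base therefore understate differences between genes, the more so the nearer they are to 1. How much this lowered the CLIC values was not estimated.

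**Figure D3:**
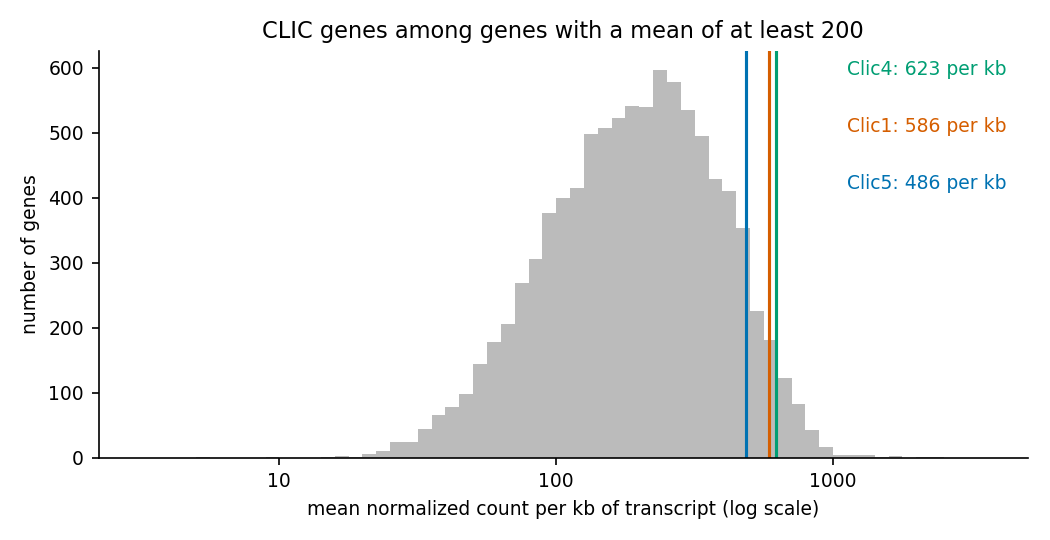
Number of genes by mean normalized count per kb of transcript (log axis), for the 9355 genes of known length averaging 200 or more. The lines mark Clic5 at 486 per kb, Clic1 at 586 and Clic4 at 623, all in the upper tail of the distribution.

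The coefficient of variation was 3.41% for Clic4, 3.87% for Clic5 and 6.39% for Clic1. Poisson counting alone would give 1.975%, 1.795% and 3.41%, from an estimated worth of 0.977, 1.06 and 0.961 normalized counts for 1 read in mice 1, 2 and 3. These counting errors do not take the removal of duplicate reads into account. For comparison, the median coefficient was 5.38% for 141 other genes within 1.2-fold of the mean of Clic4, 4.67% for 58 genes near Clic5 and 6.58% for 1757 genes near Clic1. Of these genes, 23.4% were less variable than Clic4, 37.9% were less variable than Clic5 and 47.6% were less variable than Clic1. In mouse 2 Clic4 and Clic1 had their highest value and Clic5 had its lowest.

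The genes whose profile over the 3 mice was nearest to that of a member were found by the distance between log2 values centred on each gene's mean, among 9357 genes averaging 200 or more. Cables1 (416, 473 and 439 normalized counts), Qtrt2 (268, 305 and 283) and Calu (1734, 1963 and 1833) were nearest to Clic1. Rela (1224, 1304 and 1235), Icmt (1333, 1417 and 1347) and Maz (1372, 1464 and 1390) were nearest to Clic4. Plbd2 (1118, 1042 and 1111), Scarb2 (1503, 1403 and 1495) and Smpd1 (788, 734 and 785) were nearest to Clic5. With only 3 mice such likeness is common. Within a distance of 0.05, there were 278 genes for Clic1, 583 for Clic4 and 455 for Clic5.

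The defining genes of endothelial cells were high in these libraries, and so were those of cardiomyocytes. All 12 endothelial markers averaged 200 or more, with a median of 711.2 per kb, and their summed normalized counts lay between 27593 and 28759 in single mice. Clic4 and Clic1 were each exceeded per kb by 8 of the 12, and Clic5 by 11. The vascular markers Kdr with 554.2 ± 13.5 per kb, Erg with 513.9 ± 10.5, Tek with 496.9 ± 41.8 and Emcn with 466.9 ± 17.1 (SD, n = 3) were below Clic4. Comparisons with markers were not repeated with other lengths, and Clic4 itself had 489.75 per kb by its full canonical transcript. The 10 cardiomyocyte markers had a median of 565.4 per kb and sums between 20679 and 24237. Of these, 4 exceeded Clic4 and 7 exceeded Clic5 per kb. By mean normalized count, Ttn ranked 1 in the whole table, Ryr2 ranked 16 and Myh6 ranked 19, ahead of Clic5. The other cardiomyocyte markers ranked from 941 (Tnnt2) to 4678 (Tnni3). Per kb this order changed, since Tnnt2 ranked 24 and Tnni3 ranked 281, whereas Ttn ranked 8980, Ryr2 ranked 4135 and Myh6 ranked 458. The limit from removal of duplicate reads applies to these values as well. Medians were 106.7 per kb for 8 fibroblast markers, 47.3 for 8 mural cell markers, 29.4 for the 7 listed of 8 leukocyte markers and 27.7 for 4 mesothelial markers. By mean over mice, none of these 4 lists had a gene above Clic5 per kb, although in mouse 3 the fibroblast gene Dcn had 572.8 per kb against 495.7 for Clic5.

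The leukocyte markers summed to 467, 697 and 706 normalized counts in mice 1, 2 and 3, the fibroblast markers to 3047, 3970 and 4186, the mural markers to 1610, 2002 and 2274, and the mesothelial markers to 924, 1177 and 1095. All 4 sums were lowest in mouse 1, and only the mesothelial sum was highest in mouse 2. The median per kb was 21.6, 37.1 and 33.3 for the leukocyte markers, 77.3, 125.7 and 108.5 for the fibroblast markers, and 45.5, 43.8 and 52.6 for the mural markers. Single markers went different ways, since the fibroblast gene Dcn had its lowest value in mouse 2 (813, 579 and 1007 normalized counts). Clic1, which macrophages also use, was lowest in mouse 1 and highest in mouse 2, as was Clic4. The leukocyte and fibroblast medians and the mesothelial sum had this order. So did the endothelial marker Eng (2802, 2842 and 2828 normalized counts) and the cardiomyocyte marker Myh6 (3428, 3701 and 3643). The endothelial and cardiomyocyte medians per kb were highest in mouse 1. With only 3 mice a shared order is common. The leukocyte and fibroblast sums and the mesothelial median (12.3, 33.5 and 37.4 per kb) were highest in mouse 3. In the mesothelial sum, Wt1 alone had 871, 1055 and 939 normalized counts. What part these cells, or cardiomyocytes, had in the CLIC values was not tested. In such RNA, fewer cells of a type and less RNA per cell cannot be told apart.

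Most genes chosen as partners of CLIC proteins were found in these libraries. Of 31 partner genes in 4 lists, 29 were listed in the table and 28 averaged 200 or more. Of all 17583 genes in the table, 9358 averaged 200 or more. So did 10 of 10 cardiomyocyte markers and 7 of 8 fibroblast markers, but only 1 of the 7 listed leukocyte markers. The median of the partner genes was 375.6 per kb. Clic4 and Clic1 were each exceeded per kb by 8 of the 29, and Clic5 by 10. As with the markers, comparisons with partner genes were not repeated with other lengths.

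Among the partners at the membrane and actin cortex, moesin led the ezrin, radixin and moesin family. Msn reached 2450, 2660 and 2521 normalized counts in mice 1, 2 and 3, or 662.1 ± 27.8 per kb (SD, n = 3). Rdx had 428.8 ± 6.9 per kb and Ezr had 182.5 ± 5.6, so that the 3 genes were ordered without overlap in every mouse. The sialomucin gene Podxl, whose product is anchored by this family in glomerular cells, had 3495, 3463 and 3381 normalized counts, or 640.7 ± 10.9 per kb. Of the scaffold proteins that link such membrane proteins to ezrin, Nherf2 (named Slc9a3r2 in the table) reached 847.4 ± 6.5 per kb, the highest mean of the 29 partner genes, whereas Nherf1 (Slc9a3r1) had 199.1 ± 10.97. The actin-binding profilin gene Pfn1 had 835.1 ± 40.2 per kb, which differed from Nherf2 by less than its own spread, and was above Nherf2 in mouse 2. The genes known beside Clic5 from stereocilia were lower. Tprn (taperin) had 133.6 ± 7.7 per kb and the motor gene Myo6 had 100.4 ± 9.1, and the phosphatase gene Ptprq is not listed. Akap9, a scaffold at the Golgi and centrosome, had 71.1 ± 10.99 per kb.

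Of the sphingosine-1-phosphate receptors, S1pr1 was at the level of Clic4. It reached 1903, 1935 and 1947 normalized counts in mice 1, 2 and 3, or 633.1 ± 7.5 per kb (SD, n = 3). S1pr2 had 46.6 ± 3.7 per kb and S1pr3 had 11.1 ± 0.85, so that S1pr1 was far above the other receptors in each mouse. The small GTPases that act in cortical actin and membrane traffic were all well present, with Arf6 at 628.9 ± 21.6 per kb, Rhoa at 451.2 ± 22.8 and Rac1 at 375.6 ± 16.8. Git1, which regulates Arf proteins, had 470.5 ± 12.0 per kb.

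The partner genes of TGF-beta and BMP signalling lay below the CLIC genes per kb, apart from Smad2. Smad2 had 528.5 ± 35.0 per kb (SD, n = 3), above Clic5 by mean and in mice 2 and 3. In mouse 1 it had 497.9 per kb against 498.2 for Clic5. Smad3 had 73.8 ± 12.0. The receptor genes Tgfbr2, Bmpr2 and Tgfbr1 had 223.0 ± 24.2, 187.9 ± 21.1 and 119.2 ± 13.2 per kb. The phosphatase gene Ppm1a had 205.6 ± 9.2 and the transcription factor gene Hivep2 had 73.5 ± 1.4 per kb. In the list of integrin recycling and 14-3-3 genes, Ywhae had 700.8 ± 44.8 per kb and the integrin gene Itgb1 had 637.8 ± 25.6, followed by Rab11a with 525.1 ± 30.7, Rab35 with 414.1 ± 4.7 and Ywhaz with 305.6 ± 16.9. Rab25, which is known to act with CLIC3 in epithelial cells, is not listed, as Clic3 itself is not.

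**Figure D4:**
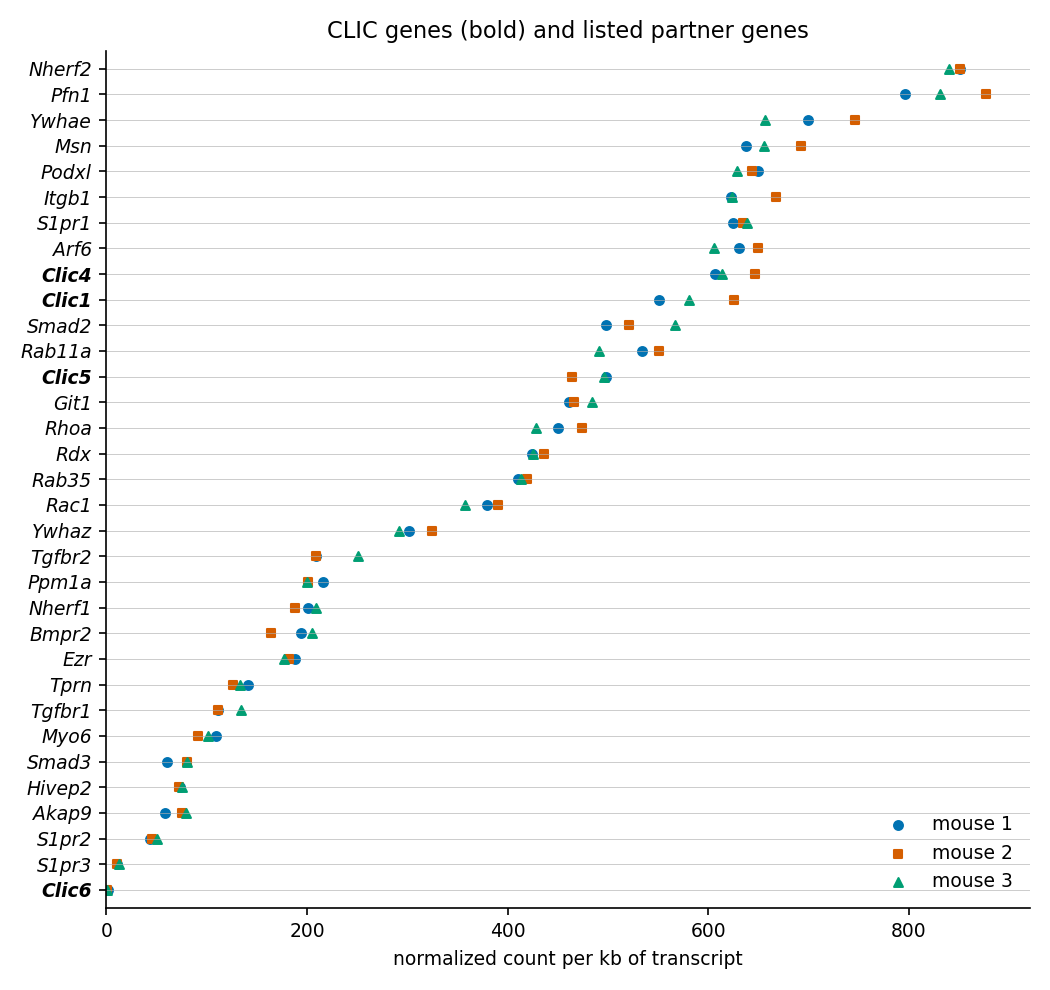
Normalized counts per kb of transcript of the listed CLIC genes (bold) and of 29 partner genes, ordered by mean, with 1 symbol per mouse. Nherf2 and Pfn1 lie highest, Clic4 and Clic1 lie next to S1pr1 and Arf6, and S1pr3 and Clic6 lie near 0.

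Per kb, Clic1, Clic4 and Clic5, which were selected on these same values, stood above the whole list of other chloride channel genes. Of such genes, 23 were listed and 15 averaged 200 or more, with a median of 133.2 per kb over the listed genes. Of all 17439 genes with a length, 803 were above Clic5 per kb, 419 above Clic1 and 329 above Clic4. None of the 23 exceeded Clic5 per kb (0 genes), nor Clic1 or Clic4, which is near the share over all genes. This count was also 0 with each other length tried and without any 1 mouse. The nearest was Lrrc8c, a subunit of the volume-regulated anion channel, with normalized counts of 2281, 2394 and 2473 in mice 1, 2 and 3, or 341.6 ± 13.8 per kb (SD, n = 3). The obligatory subunit of that channel, Lrrc8a, had 139.3 ± 11.2 per kb. Lrrc8d had 133.2 ± 12.6 and Lrrc8b had 105.7 ± 15.9, and Lrrc8e is not listed. By mean normalized count, without regard to length, Clic1 (858.7) was below Lrrc8c (2382.67), Ttyh3 (1444.67) and Ano6 (1340).

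Further genes of this list with a clear signal were Ttyh3 with 310.1 ± 19.6 per kb, Ano6, a lipid scramblase with ion channel activity, with 272.0 ± 21.3, and Clcc1 of the endoplasmic reticulum with 259.3 ± 20.1. The chloride/proton exchangers of endosomes and lysosomes were at similar levels to each other, with Clcn4 at 162.1 ± 4.5 per kb, Clcn6 at 151.6 ± 16.2, Clcn3 at 150.1 ± 7.8 and Clcn7 at 134.4 ± 2.5, while Clcn5 had 13.1 ± 2.2. The acid-activated channel gene Pacc1 had 146.2 ± 1.3 per kb. The calcium-activated channel gene Ano1 had normalized counts of 16, 26 and 36, and the epithelial channel gene Cftr is not listed, nor is Best2. The remaining genes ranged from 1.1 per kb for Ano2 to 172.6 for Ano10.

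**Figure D5:**
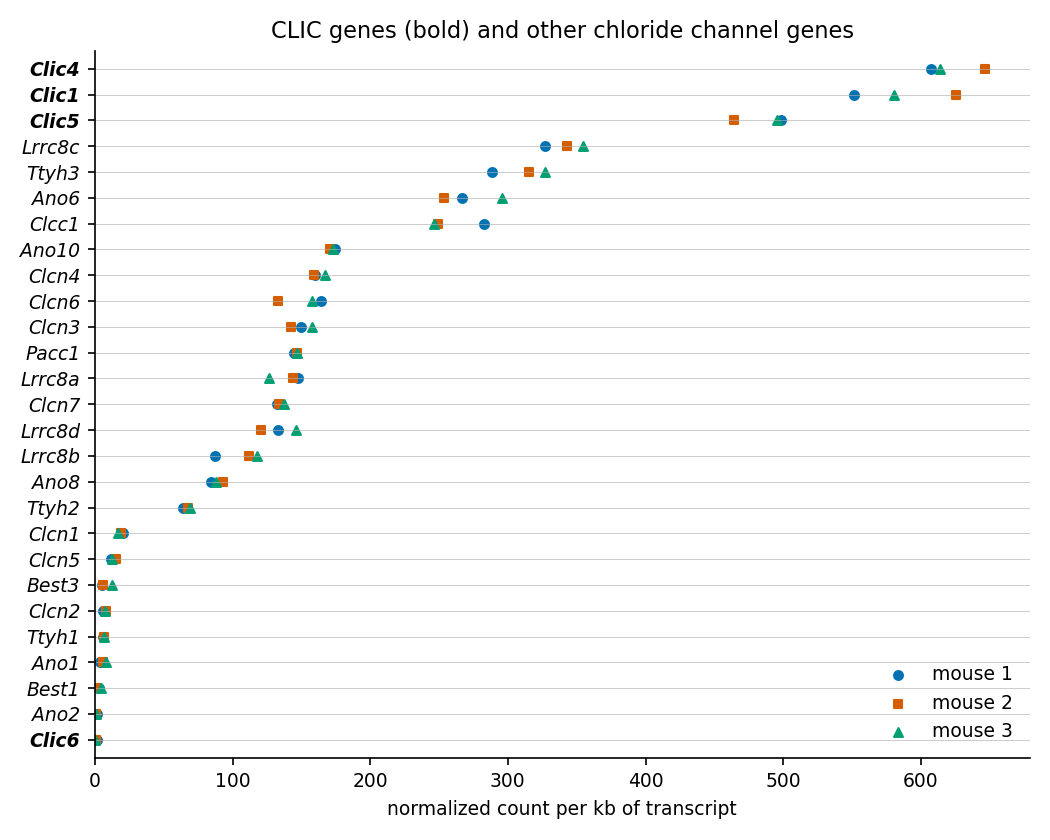
Normalized counts per kb of transcript of the listed CLIC genes (bold) and of 23 other chloride channel genes, ordered by mean, with 1 symbol per mouse. Clic4, Clic1 and Clic5 lie above Lrrc8c at 341.6 per kb in every mouse, and Clic6 lies near 0.

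The 4 genes chosen as relatives of the CLIC proteins by fold were also lower per kb. Other glutathione transferase genes were not examined. Glutathione transferase omega Gsto1 had 150.6 ± 12.5 per kb (SD, n = 3), with normalized counts of 181, 191 and 162, and Gsto2 had 11, 4 and 7 normalized counts. The glutaredoxin genes Glrx2 and Glrx had 119.7 ± 6.7 and 107.6 ± 8.7 per kb.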

How the data were processed

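The study sequenced ribosome-bound RNA of 3 EC-RiboTag hearts, from 250 ng of RNA per library. Per the study's methods, the authors trimmed reads with Trimmomatic 0.39, aligned them with STAR 2.7.11a to mm39 (Ensembl release 109), removed duplicates with Picard 3.1.1, discarded reads of mitochondrial or ribosomal origin and those mapping to several places, used featureCounts 2.0.4 for strand-specific exon counts per gene, in which reads shared between genes were dropped, and normalized with DESeq2 1.36.0. The deposited values have the unit of a score, since the authors divided counts by a size factor and rounded to whole numbers, so no count model was used. With a single condition, no difference was tested.

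Means and SDs over mice were taken. Values per kb use the Ensembl canonical transcript of GENCODE vM39 (GRCm39), cut to the gene bounds of the table, a choice made after its coordinates were seen. Lengths were found for 17439 of 17583 genes. The worth of 1 read was estimated from empty and doubled whole numbers between 5 and 120, which implied 7319000, 6754000 and 7566000 reads. The deposited values summed to 7149102, 7158585 and 7268785. Exact copies were searched with BLAST 2.17.0, coding sequences were aligned with mafft 7.526, and other steps used Python 3.11.15, numpy 2.4.6, pandas 2.3.3, scipy 1.17.1 and matplotlib 3.10.9.

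Named were the CLIC genes, the genes of the partner, chloride channel, fold and marker lists, and, for each member, the 3 genes with the nearest profile, on log2 values with a pseudocount of 0.5. Some genes of the chloride channel list are not reported here. Members and lists were chosen with earlier results of these data known. Alternatives were other scalings (equal totals, and means of log ratios trimmed by 30% and of levels by 5%), other lengths, a minimum of 10 in every mouse, the median over mice, pseudocounts of 1 and 5, and leaving out each mouse. The full canonical transcript and the shorter Clic5 transcript were added after the data had been seen.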

Additional observations from a re-analysis of the deposited data

How the results depend on the processing

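Of 149 values recomputed under an alternative, 131 moved by less than the spread between mice (by less than 1.5 times for a coefficient of variation, and not at all for a count of 0). The others all came from the choice of length, apart from both list medians given at the end. The tally is not a measure of robustness, since part of it was fixed in advance. Leaving out a mouse cannot shift a mean of so few values by as much as their SD. The levels and log2 ratios without a mouse therefore had to count as unmoved. The ratio of Clic4 to Clic1 could not change with the Clic5 transcript used. The pseudocounts tried were small beside the normalized counts in the ratios. By the union of annotated exons, Clic1 ranked 137 and Clic5 ranked 573 per kb, and the log2 ratios were 0.22 for Clic4 to Clic5, -0.35 for Clic4 to Clic1 (reversed) and 0.57 for Clic1 to Clic5. By coding length, Clic1 ranked 991, Clic4 ranked 60 and Clic5 ranked 242, and the ratios were 0.67, 1.51 and -0.84 (the last reversed). Clic5 was taken here at 1455 coding bases, and its shorter transcript with 753 coding bases was not tried. By the full canonical transcript, Clic4 ranked 596 and the ratios were 0.13 for Clic4 to Clic5 and -0.26 for Clic4 to Clic1 (reversed). With the shorter Clic5 transcript, Clic5 ranked 595 and the ratio of Clic4 to Clic5 was 0.24. Each of these follows from the divisor itself.

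Leaving out 1 mouse at a time, the mean of Clic4 lay between 2514.5 and 2596, that of Clic5 between 3058.5 and 3166 and that of Clic1 between 829.5 and 884. The rank per kb lay between 297 and 349 for Clic4, 363 and 464 for Clic1, and 740 and 896 for Clic5. The log2 ratio per kb lay between 0.30 and 0.39 for Clic4 to Clic5, 0.06 and 0.11 for Clic4 to Clic1, and 0.19 and 0.33 for Clic1 to Clic5. The median per kb lay between 126.8 and 134.6 for the other chloride channel genes and between 695.8 and 715.1 for the endothelial markers. No paired analysis was possible because the libraries form a single group. Clic6, at 1 to 5 normalized counts, is limited by depth, and whether Clic3 is present below the floor of the table cannot be told.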
